A study of Mus musculus with 9 samples.

Results

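The 6 genes described here are 3 cohesin subunits used in meiosis (Rec8, Smc1b and Stag3), the 2 acetyltransferases that act on cohesin (Esco1 and Esco2) and Cdca5, which encodes sororin. They were taken by symbol from the 41128 genes of a count table of mouse lymphomas, and were selected on the log2 fold changes of Rec8 and Esco2 between the genotypes in these same tumors. RNA was sequenced from 9 tumors, 1 library per tumor: 3 Bcl6 tumors (Smc3 wt/wt with Cγ1 wt/cre and IµBcl6) and 6 Smc3/Bcl6 tumors (Smc3 wt/- with the same Cγ1 wt/cre and IµBcl6). All mice therefore carried Cre and the transgene. The IµBcl6 transgene holds Bcl6 on in B cells. Cγ1-Cre recombines a floxed Smc3 allele in B cells on their entry into the germinal center, so cells of the tumor mass that are not of this lineage keep both Smc3 alleles. The labels give the mesenteric lymph node as the source of tumor 1 in either genotype and only a lymph node elsewhere, and ages are not given in the sources used here. The study's text gives lymphoma cells of the mesenteric lymph node for all tumors, which differs from the labels. Nothing in the labels says which tumors, if any, share a mouse, so p-values measure the spread between these 9 samples.

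Cohesin is a ring of Smc1, Smc3 and a kleisin subunit, bound by a Stag protein, that holds sister chromatids together and forms chromatin loops. Dividing somatic cells use Smc1a, Rad21 and Stag1 or Stag2, and germ cells replace them in meiosis with Smc1b, Rec8 and Stag3. Esco1 acetylates Smc3 throughout the cell cycle, and Esco2 does so in S phase as the replication fork passes. Acetylated cohesin is bound by sororin, which keeps Wapl from opening the ring until mitosis. Mki67, the gene of the Ki-67 antigen, is a marker of cycling cells and was used as the measure of proliferation in each tumor.

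The libraries held between 10156728 and 17774577 counts. Levels are given as CPM (counts relative to the TMM-scaled library size), and levels of different genes are compared only as CPM per kilobase of exon (RPKM). Smc3, the targeted gene, averaged 104 ± 19.3 CPM in the 3 Bcl6 tumors and 91.4 ± 32.0 CPM (SD) in the 6 Smc3/Bcl6 tumors. The lowest of the latter was tumor 2 at 27.9 CPM, and the other 5 lay between 89.7 and 111 CPM. This level, counted over the whole gene in bulk samples, did not separate the genotypes. By RT-qPCR, which is a different measure, the study reports that expression of the targeted gene was reduced. Deletion of the allele in each tumor was not tested here, so these counts do not show whether the gene was lowered in the lymphoma cells. Smc3/Bcl6 tumor 2 stood apart by gene length: its deviations from the mean of the tumors fell with exon length (Spearman's rho across genes of -0.47, against -0.03 to 0.27 in the other 8), so its long genes were low and its short genes high. Results that rest on this tumor are also given without it. B cell marker genes were detected in all tumors, with sums between 2537 and 9978 CPM over 6 genes, and T cell markers ranged from 81.7 to 2321 CPM. In these bulk samples, fewer cells of a type and less RNA per cell cannot be told apart.

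Smc1b and Stag3 were close to the limit of detection and Rec8 was low, whereas the acetyltransferases and Cdca5 had higher median levels. Over the 9 libraries, Smc1b had 111 counts in all (4 to 32 per tumor), Stag3 had 116 (4 to 52) and Rec8 had 436 (13 to 123). Esco2, Cdca5 and Esco1 had 3216, 6095 and 13561. All 6 genes passed edgeR's filter on low counts. In order of median RPKM over the 9 tumors, Stag3 (0.0738) and Smc1b (0.176) were lowest, followed by Rec8 (0.721), Esco2 (3.39), Cdca5 (20.4) and Esco1 (21.3). The ranges of Stag3 and Smc1b overlapped (0.0471 to 0.604 and 0.103 to 0.413 RPKM), as did those of Cdca5 and Esco1 (6.28 to 64.9 and 5.17 to 27.9 RPKM). Rec8 (0.294 to 2.88 RPKM) and Esco2 (2.05 to 10.03 RPKM) overlapped as well: Rec8 in Smc3/Bcl6 tumors 4 and 5 (2.79 and 2.88) lay above the lowest Esco2 values, 2.05 and 2.44 RPKM in Smc3/Bcl6 tumors 4 and 6.

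Rec8 (ENSMUSG00000002324.7) encodes the meiotic kleisin, the subunit that closes the ring in place of Rad21, and lies on chromosome 14 from 55618037 to 55625395 on the plus strand (GRCm38). It had 2.12, 0.864 and 1.23 CPM in Bcl6 tumors 1 to 3. In Smc3/Bcl6 tumors 1 to 6 it had 4.23, 2.96, 1.78, 8.19, 8.45 and 2.00 CPM. Smc3/Bcl6 tumors 4 and 5 were highest, and tumors 3 and 6 lay below Bcl6 tumor 1, so the genotypes overlapped. The 6 B cell markers summed to 9978 and 5377 CPM in Smc3/Bcl6 tumors 4 and 5. In Bcl6 tumors 1 to 3 they summed to 8044, 4190 and 2537 CPM. Over the 9 tumors, Pearson r of Rec8 with the mean log2 CPM of these markers was 0.54. The part of B cell content in the Rec8 values was not tested.

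The log2 fold change of Rec8 (Smc3/Bcl6 minus Bcl6) was 1.71 with a standard error of 0.68, the value on which it was selected. It ranged from 1.45 to 2.06 when each tumor was left out, and at 1.46 without Bcl6 tumor 2 it no longer passed the unadjusted p threshold of the study. With tumors of the same replicate number paired (3 of each genotype) it was 1.07 with a standard error of 0.65, which did not pass, and over the same 6 tumors without the pairing it was also 1.07. The levels behind these folds are small: the mean was 1.403 ± 0.644 CPM (SD, n = 3) against 4.60 ± 3.01 CPM (SD, n = 6).

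Per length, Rec8 was a small part of the kleisin RNA in every tumor. It was 1.85%, 1.02% and 1.37% of the RPKM of Rad21, the mitotic kleisin, in Bcl6 tumors 1 to 3. In Smc3/Bcl6 tumors it was 4.17%, 6.55%, 1.95%, 15.0%, 12.6% and 3.22%. On this ratio the genotypes did not overlap, by the small step between Bcl6 tumor 1 and Smc3/Bcl6 tumor 3, and it combines Rec8 with Rad21, whose own log2 fold change was -0.45. On log2 CPM itself, 0 of the 6 genes had groups without overlap, against 0.484% of the 14057 genes tested. The ratio rests on the contrast that selected Rec8 and is a description.

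Smc1b (ENSMUSG00000022432.6; chromosome 15, 85064689 to 85131964, minus strand) is the meiotic partner of Smc3, in the place of Smc1a. It had 0.441, 0.594 and 1.51 CPM in Bcl6 tumors and 0.416, 0.423, 1.67, 1.13, 0.711 and 0.733 CPM in Smc3/Bcl6 tumors. High and low values occurred in both genotypes, and the log2 fold change was 0.02 with a standard error of 0.64. Smc1b was between 0.194% and 1.38% of the RPKM of Smc1a, with a median of 0.751% over the 9 tumors. The highest Smc1b values, in Bcl6 tumor 3 and Smc3/Bcl6 tumor 3, were in tumors whose 6 macrophage markers summed to 1921 and 1919 CPM, and the lowest, in Smc3/Bcl6 tumor 1 and Smc3/Bcl6 tumor 2, in tumors with sums of 135 and 2158 CPM. The 4 dendritic cell markers summed to 131 CPM in Bcl6 tumor 3 and 151 CPM in Smc3/Bcl6 tumor 3. In Smc3/Bcl6 tumors 1 and 2 they summed to 28.4 and 42.8 CPM. Over the 9 tumors, Pearson r of Smc1b with the mean log2 CPM of a list was 0.82 for dendritic cell markers. It was 0.71 for natural killer cell markers and 0.70 for macrophage markers. The part of any of these cells in the values was not tested.

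Stag3 (ENSMUSG00000036928.9; chromosome 5, 138280240 to 138312393, plus strand) is the meiotic Stag subunit. Its values were 0.353, 0.270 and 1.98 CPM in Bcl6 tumors and 0.486, 0.423, 0.366, 3.46, 0.790 and 0.400 CPM in Smc3/Bcl6 tumors. A single tumor of each genotype, Bcl6 tumor 3 and Smc3/Bcl6 tumor 4, stood above the others. The log2 fold change was 0.21 with a standard error of 0.97, and it was 1.65 without Bcl6 tumor 3. These were also the tumors with the highest sums of the 5 neutrophil markers, 1338 and 462 CPM against 8.53 to 163 CPM in the other 7, and the part of these cells in Stag3 was not tested. Stag3 was between 0.205% and 1.61% of the summed RPKM of Stag1 and Stag2, with a median of 0.289%.

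**Figure D1:**
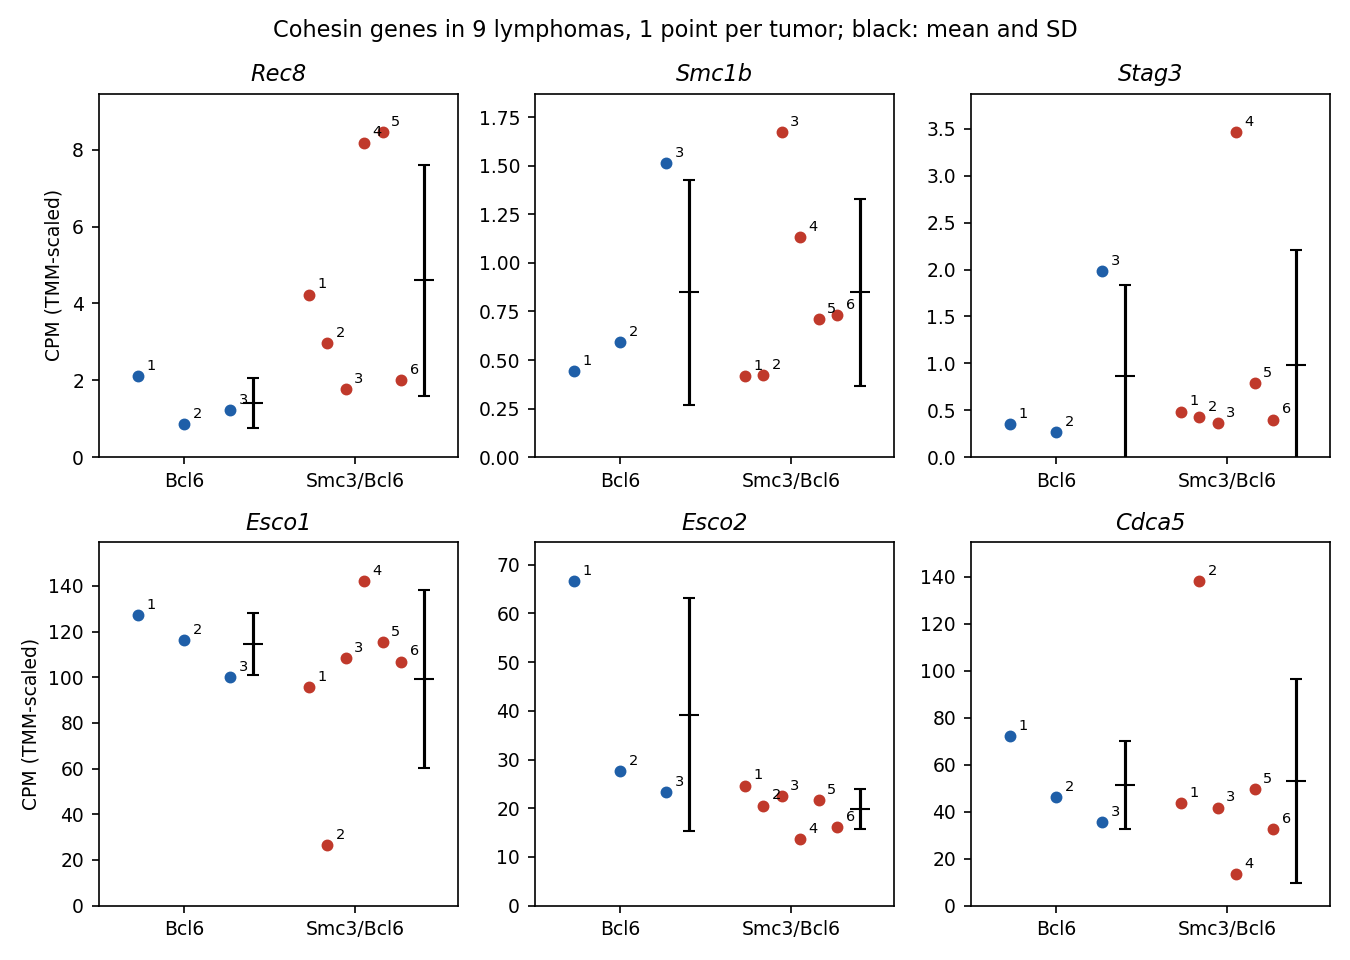
CPM (TMM-scaled) of the 6 genes in each tumor, with the tumor number beside each point, Bcl6 tumors in blue and Smc3/Bcl6 tumors in red; black marks are the mean and SD of each genotype, with lower bars ending at the axis where the SD exceeds the mean. The plot shows Rec8 between 1.78 and 8.45 CPM in Smc3/Bcl6 tumors, the single high Bcl6 value of Esco2 (66.7 CPM) and the values of Esco1 and Cdca5 in Smc3/Bcl6 tumor 2 apart from all others.

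Esco1 (ENSMUSG00000024293.10; chromosome 18, 10566507 to 10610352, minus strand) was the most even of the 6 apart from a single tumor. It had 127, 116 and 100.1 CPM in Bcl6 tumors and 95.7, 26.4, 108, 142, 115 and 107 CPM in Smc3/Bcl6 tumors. Smc3/Bcl6 tumor 2, the tumor with low counts on long genes, was lowest by far. It remained lowest after correction of log2 CPM for exon length, at 5.06 against 6.50 to 7.10 in the other 8. The log2 fold change was -0.21 with a standard error of 0.41 over all tumors and 0.00 with a standard error of 0.16 without tumor 2.

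Esco2 (ENSMUSG00000022034.9; chromosome 14, 65819038 to 65833994, minus strand), the S-phase acetyltransferase, had 66.7, 27.6 and 23.2 CPM in Bcl6 tumors. In Smc3/Bcl6 tumors it had 24.6, 20.5, 22.5, 13.6, 21.7 and 16.2 CPM. Bcl6 tumor 1 lay far above the rest, which overlapped between genotypes, with Smc3/Bcl6 tumor 1 above Bcl6 tumor 3.

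The log2 fold change of Esco2 was -0.98 with a standard error of 0.35, again the value on which it was selected. It was -0.42 with a standard error of 0.31 without Bcl6 tumor 1, past neither the fold nor the p threshold of the study, and between -0.87 and -1.25 with any other tumor left out. With the replicate pairs it was -0.67 with a standard error of 0.40 and did not pass the p threshold. Bcl6 tumor 1 also had the highest sum of the 16 S-phase genes (3503 CPM, against 1193 to 3026 CPM in the other 8) and the highest Mki67. Its T cell and macrophage marker sums, 280 and 273 CPM, were below those of Bcl6 tumors 2 and 3 (2321 and 1683 CPM for T cells, 800 and 1921 CPM for macrophages), and the part of this makeup in the fold change was not tested. With log2 CPM of Mki67 as a covariate the log2 fold change was -0.73 with a standard error of 0.42, which did not pass the p threshold.

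Esco2 was the minor acetyltransferase in every tumor. Its RPKM was 40.2%, 18.2% and 17.8% of that of Esco1 in Bcl6 tumors and 19.7%, 59.8%, 15.9%, 7.36%, 14.4% and 11.6% in Smc3/Bcl6 tumors. The highest share, in Smc3/Bcl6 tumor 2, came with the low Esco1 value of that tumor, where Esco2 had 20.5 CPM. After correction for exon length, log2 CPM of Esco2 there was 4.94, above the 3.66 to 4.49 of the other Smc3/Bcl6 tumors. Without this tumor, the Smc3/Bcl6 range was 7.36% to 19.7%, which overlapped that of the Bcl6 tumors.

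**Figure D2:**
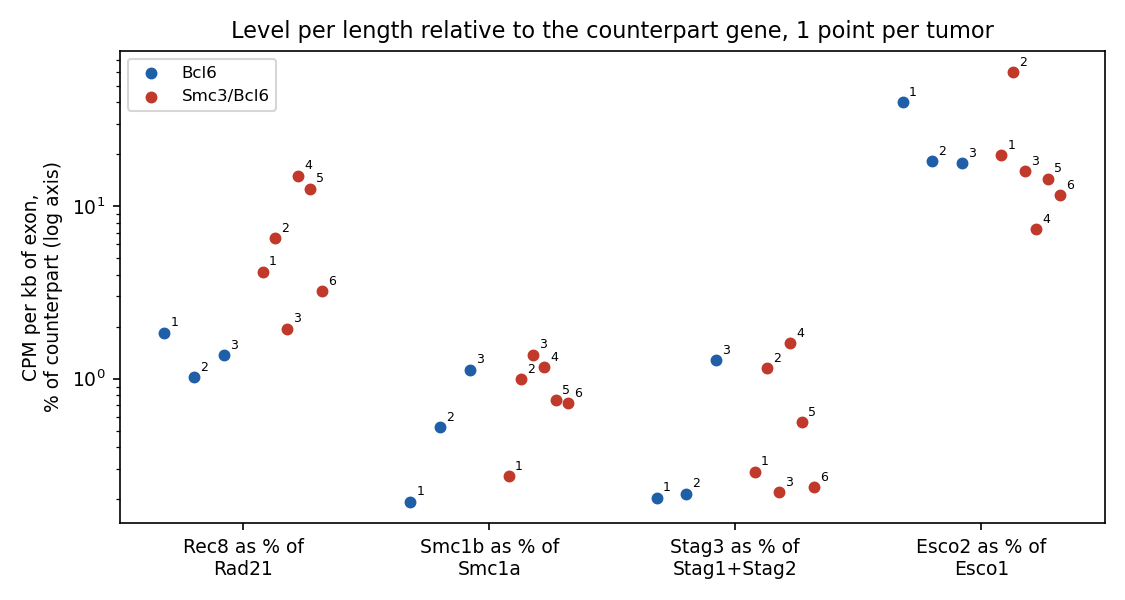
RPKM of 4 genes as a percentage of the RPKM of their counterpart in the same tumor (log axis), 1 numbered point per tumor, Bcl6 in blue and Smc3/Bcl6 in red. Rec8 was 1.02% to 15.0% of Rad21, Smc1b and Stag3 stayed at or below 1.61% of Smc1a and of Stag1 plus Stag2, and Esco2 was 7.36% to 59.8% of Esco1.

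Cdca5 (ENSMUSG00000024791.5; chromosome 19, 6084983 to 6091777, plus strand) had 72.1, 46.1 and 35.6 CPM in Bcl6 tumors. In Smc3/Bcl6 tumors it had 43.5, 138, 41.7, 13.4, 49.5 and 32.5 CPM. The highest and the lowest values were both in Smc3/Bcl6 tumors, in tumor 2 and tumor 4. The log2 fold change was 0.05 with a standard error of 0.60 over all tumors and -0.48 with a standard error of 0.40 without tumor 2, and neither passed the thresholds of the study. Cdca5 has the shortest exon length of the 6 genes (2129 bases), and its high value was in the tumor where short genes were high. After correction for exon length tumor 2 was still the highest, at 6.48 on the log2 CPM scale against 3.97 to 6.18 in the other 8.

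Promoter windows were at hand for 4 of the 6 genes, Rec8, Smc1b, Stag3 and Cdca5 (RefSeq, GRCm38.p6). The 250 bases before the RefSeq start are shown for Cdca5, whose level went with that of mitosis genes, and for Rec8, the gene with the largest fold change of the 6. Capitals mark TTTGAA, the cell cycle homology region known from promoters of late cell cycle genes, in Cdca5 (chr19:6084847-6085096, plus strand), and ATTGG, the reverse complement of the CCAAT box, in Rec8 (chr14:55617916-55618165, plus strand). In both, the GENCODE gene start given above falls inside the window.
Cdca5: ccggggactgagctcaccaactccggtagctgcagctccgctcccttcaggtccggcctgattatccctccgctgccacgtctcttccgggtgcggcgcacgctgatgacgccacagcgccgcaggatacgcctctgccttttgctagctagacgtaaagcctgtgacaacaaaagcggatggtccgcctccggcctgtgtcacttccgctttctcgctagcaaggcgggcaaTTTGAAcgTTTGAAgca
Rec8: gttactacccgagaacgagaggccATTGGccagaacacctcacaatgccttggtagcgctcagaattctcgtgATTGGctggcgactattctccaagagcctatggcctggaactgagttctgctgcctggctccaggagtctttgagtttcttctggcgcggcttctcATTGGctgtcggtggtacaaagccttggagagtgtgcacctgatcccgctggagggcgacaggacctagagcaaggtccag
In windows of 300 bases that also hold 50 bases after the start, TTTGAA on either strand was found in 17.9% of 32851 promoters. Cdca5 held 2 copies, starting 17 and 9 bases before the start, and Mki67 also held 2, while the windows of Rec8, Smc1b and Stag3 held none. CCAAT on either strand was found in 37.4% of promoters, with 3 copies in Rec8, 1 in Smc1b, 1 in Stag3, 3 in Mki67 and none in Cdca5. CACGTG was found in 7.15% of promoters and once in Stag3. None of TTTCCCGC, TTTGGCGC, TTTCGCGC and TTTGCCGC, written forms of the E2F site found in 2.26% of promoters, was in the windows of these 4 genes. A match is a description of the letters only.

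The genotypes were compared across all 14057 genes with edgeR's quasi-likelihood test and the thresholds of the study, which ask for p below 0.1 before adjustment and a log2 fold change beyond 0.56 in either direction. Of all genes tested, 2.15% passed, 1.28% as higher and 0.868% as lower in Smc3/Bcl6 tumors. Of the 6 genes, Rec8 passed as higher and Esco2 as lower, which is how they were selected, so nothing is read from this count. After Benjamini-Hochberg adjustment over all genes, 0% passed an adjusted p below 0.05, by edgeR, DESeq2 or limma, and 79 genes had an unadjusted p below 0.05 with edgeR. With replicate pairs, 2.24% of 13360 genes passed and 0 of the 4 of these genes that could be tested did. Without Smc3/Bcl6 tumor 2, 3.82% of 13942 genes passed, and Rec8 (1.84) and Esco2 (-0.96) were again the 2 of the 6.

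**Figure D3:**
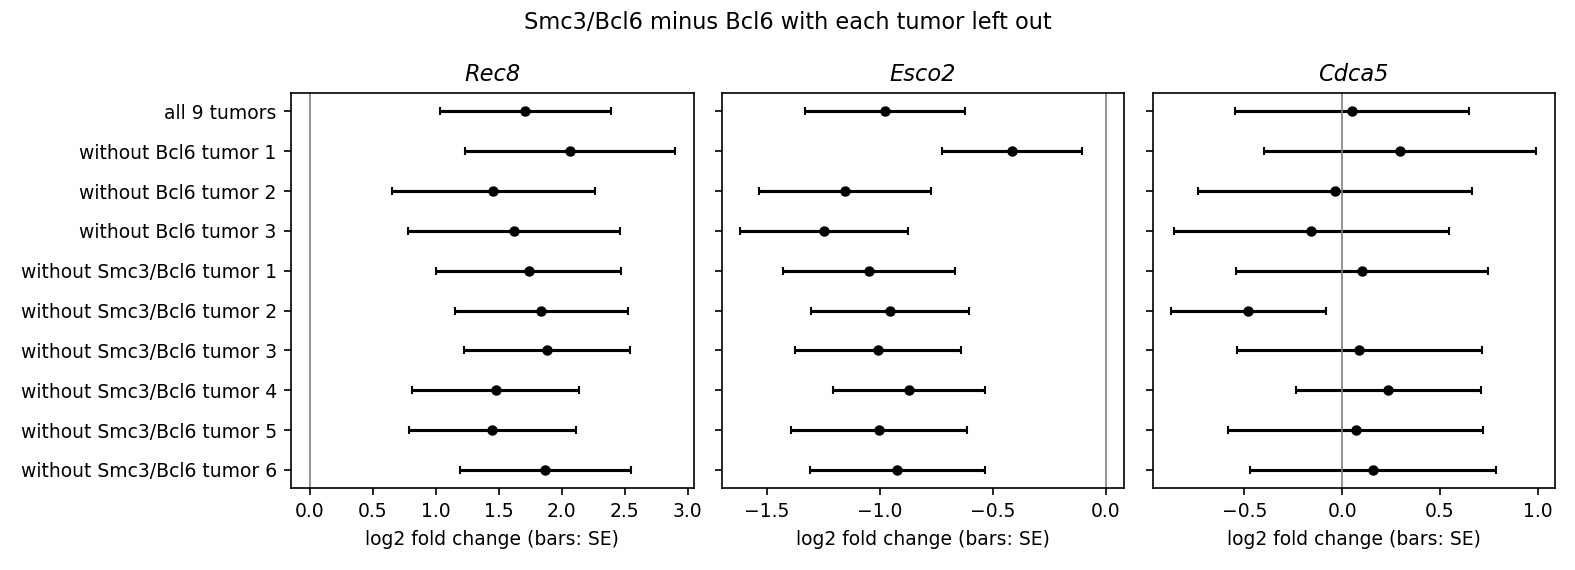
Log2 fold change (Smc3/Bcl6 minus Bcl6) of Rec8, Esco2 and Cdca5 with its standard error, over all 9 tumors and with each tumor left out. Rec8 stayed between 1.45 and 2.06, Esco2 moved to -0.42 without Bcl6 tumor 1, and Cdca5 moved to -0.48 without Smc3/Bcl6 tumor 2.

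Among the ring, loading, release and fork genes that act with these 6 in the cohesin cycle, Timeless alone passed the thresholds over all tumors. Of all genes tested, 2.15% passed, so nothing is read from the counts of these short lists. Of the 5 subunits of the mitotic ring, 0 passed the thresholds and 4 had a negative log2 fold change, from -0.64 (SE 0.37) for Smc1a to 0.08 (SE 0.45) for Stag2. The median was -0.21, against 0.06 over all genes tested, of which 42.6% were negative. Without Smc3/Bcl6 tumor 2 the median of the ring was 0.00.

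Of 10 loading, release and removal factors, 0 passed, and values ranged from -0.81 (SE 0.49) for Espl1, the separase that cuts the kleisin at anaphase, to 0.11 (SE 0.36) for Pttg1, its inhibitor securin. When Smc3/Bcl6 tumor 2 was left out, 1 of the 10 passed as lower, Sgo1 (-0.86), the shugoshin that protects centromeric cohesin. Of all genes, 3.82% then passed in either direction.

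Of the 7 genes that act with Esco2 at the replication fork, 1 passed as lower and 0 as higher. This was Timeless, a fork protection factor, at -0.90 with a standard error of 0.33, and the highest was Chtf8, a subunit of an alternative clamp loader, at 0.01 (SE 0.24). Timeless had 84.3, 39.9 and 38.1 CPM in Bcl6 tumors and 35.4, 18.8, 40.3, 26.02, 24.4 and 29.1 CPM in Smc3/Bcl6 tumors. As with Esco2, Bcl6 tumor 1 was the highest of all, and without it 0 of the 7 passed.

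**Figure D4:**
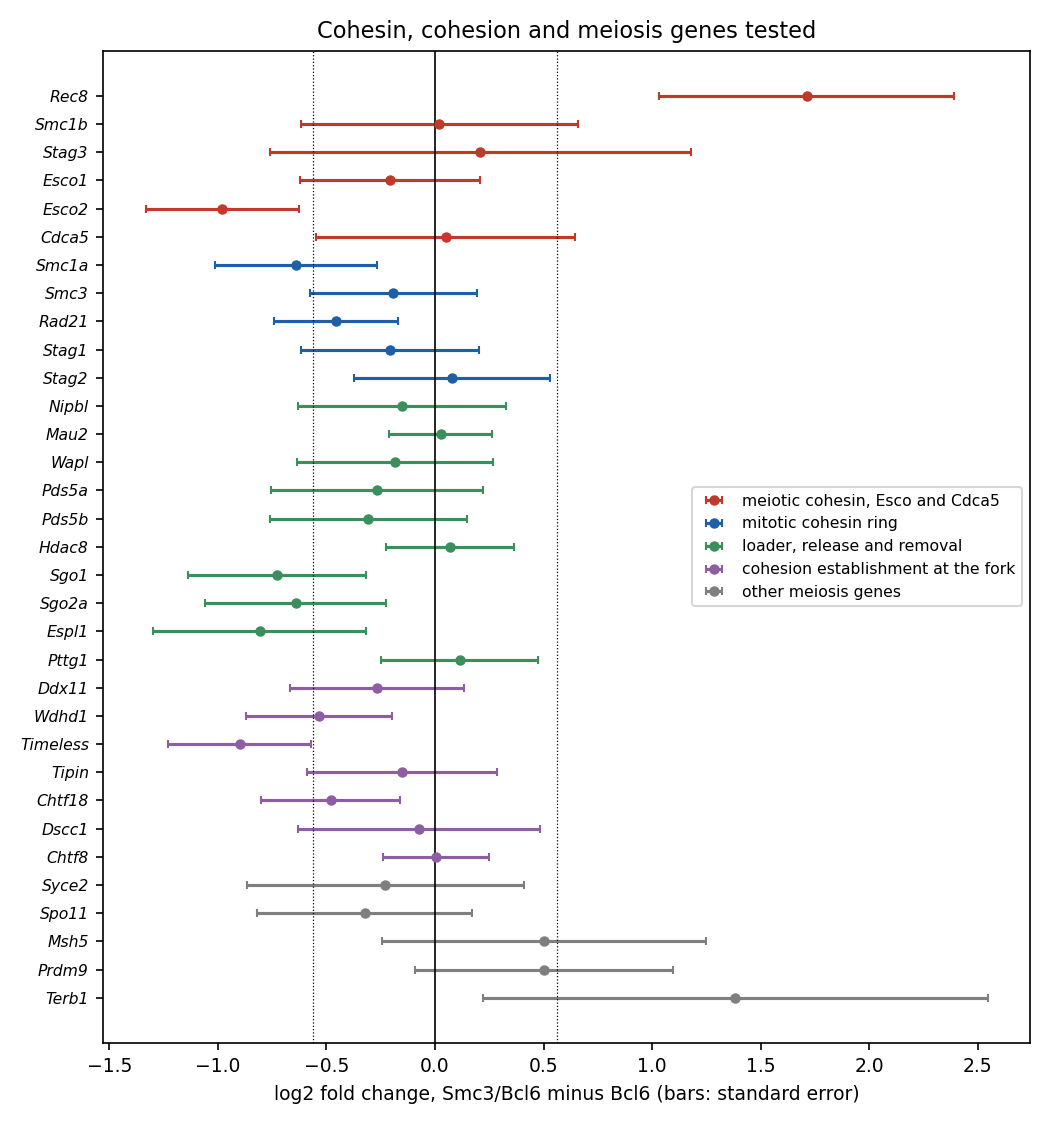
Log2 fold change (Smc3/Bcl6 minus Bcl6) with its standard error for the 6 genes and the tested genes of 4 lists: mitotic ring, loader, release and removal, cohesion at the fork, and other meiosis genes. Dotted lines mark the fold threshold of 0.56 in both directions; Rec8 (1.71) and Terb1 (1.38) lie farthest to the right, with wide errors.

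Rec8 was not accompanied by a broad set of meiosis genes. Of 28 other meiosis genes listed, 5 passed the low-count filter, 5 had no count in any tumor and 14 had fewer than 10 counts in all (these include the 5 at 0). Rad21l, the other meiotic kleisin, had 0 counts, and the axis and synapsis genes Sycp1 and Sycp3 had 1 and 3. The 5 tested were Syce2 (log2 fold change -0.23), Spo11 (-0.32), Msh5 (0.50), Prdm9 (0.50) and Terb1 (1.38, SE 1.16), and 0 of them passed the thresholds. They were seen in every tumor: Prdm9, the methyltransferase that places meiotic breaks, had between 2.12 and 21.4 CPM, and Spo11, which makes them, between 3.17 and 19.5 CPM. Terb1, which ties telomeres to the nuclear envelope in meiosis, had 18.9 CPM in Smc3/Bcl6 tumor 4 and 0.474 to 3.00 CPM in the other 8. Prdm9 was also highest in that tumor, where Stag3 had its highest value and Rec8 8.19 CPM. Overlaps of these 5 genes with their neighbours were not examined.

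Cell cycle genes were lower at the median in Smc3/Bcl6 tumors, by an amount that depended on the tumors included. Of 16 S-phase genes, 0 passed and 14 were negative, with a median of -0.33 and values from -0.64 (SE 0.36) for Rrm2 to 0.34 (SE 0.79) for Gins2. Of 16 mitosis genes, 3 passed as lower and 0 as higher, with 14 negative and a median of -0.41: Bub1 (-1.04, SE 0.52) of the spindle checkpoint, Cenpe (-0.90, SE 0.42), a kinetochore motor, and Tpx2 (-0.61, SE 0.30), a spindle factor. The highest was Bub1b at 0.73 (SE 0.97), with 941 CPM in Smc3/Bcl6 tumor 5 and 34.4 to 191 CPM in all other tumors. Of all genes tested, 0.868% passed as lower, and the median was 0.06. Without Bcl6 tumor 1, 0 passed in either list and the medians were -0.06 and -0.15, against 0.04 over all genes. Leaving out Smc3/Bcl6 tumor 2 instead, 4 and 7 passed as lower and the medians were -0.52 and -0.70. Over all genes, 3.82% then passed in either direction, with a median of 0.03. With the replicate pairs the medians were -0.04 and -0.01, against -0.08 over all genes. The highest sum of the mitosis genes in Bcl6 tumors (1854 CPM) was again in tumor 1.

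The relation of each gene to proliferation was measured as the correlation of log2 CPM with that of Mki67 in the same tumor. Mki67 had 358, 242 and 226 CPM in Bcl6 tumors and 278, 53.5, 159, 84.9, 312 and 165 CPM in Smc3/Bcl6 tumors. The genotypes overlapped, and its log2 fold change of -0.65 (SE 0.50) did not pass the p threshold. With the replicate pairs it was -1.03 (SE 0.50) and passed the thresholds of the study as lower. The lowest value was in Smc3/Bcl6 tumor 2, where long genes were low (Mki67 has 10061 exonic bases). After correction for length, log2 CPM of Mki67 was 6.76 there and 6.13 in Smc3/Bcl6 tumor 4, then the lowest. Without correction, the mitosis genes summed to 1920 CPM in tumor 2, the highest of all tumors, but the list was mixed. Cdk1 was highest there (291 CPM), and Cenpe (12.9 CPM) and Cenpf (14.5 CPM) were lowest. Their mean log2 CPM was 6.28 in tumor 2, below 6.79 in Bcl6 tumor 1. Before correction for length, Mki67 and Cdca5 stood at opposite ends in Smc3/Bcl6 tumor 2, which is the leftmost point of the plot of level against Mki67.

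**Figure D5:**
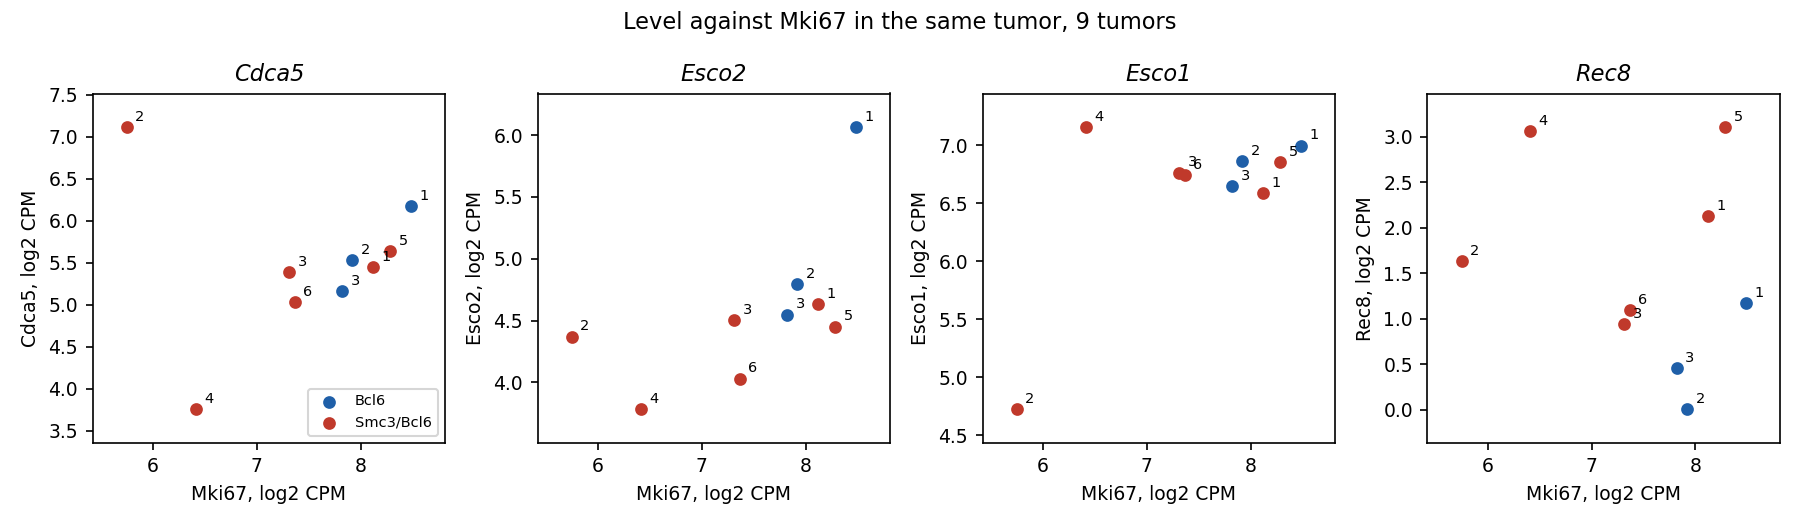
Log2 CPM of Cdca5, Esco2, Esco1 and Rec8 against log2 CPM of Mki67, 1 numbered point per tumor, Bcl6 in blue and Smc3/Bcl6 in red. Cdca5 lies along a line with Mki67 except in Smc3/Bcl6 tumor 2, Esco2 follows Mki67 more loosely, Esco1 is near level except in tumor 2, and Rec8 shows no clear order.

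Over all 9 tumors, none of the 6 relations passed an adjusted p of 0.05 (exact two-sided permutation over 362880 pairings, Benjamini-Hochberg over the 6 genes). Esco2 had Pearson r = 0.60 (exact p = 0.0926, adjusted 0.278) and Spearman rho = 0.72 (exact p = 0.0369, adjusted 0.221). Esco1 had r = 0.64 (exact p = 0.0914, adjusted 0.278) and rho = 0.27 (exact p = 0.493, adjusted 0.6248). For Cdca5 the values were r = -0.03 (exact p = 0.932, adjusted 0.932) and rho = 0.33 (exact p = 0.385, adjusted 0.6248). The meiotic genes had r = -0.18 (Rec8, exact p = 0.653), -0.10 (Smc1b, exact p = 0.796) and -0.25 (Stag3, exact p = 0.540), each with an adjusted p of 0.932, and their rho were 0.07, -0.33 and -0.25.

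Without Smc3/Bcl6 tumor 2, Cdca5 followed Mki67 closely and was the only one of the 6 to pass. In the other 8 tumors r was 0.93 (exact permutation p = 0.00151, adjusted 0.00908), and rho was 0.90 (exact permutation p = 0.00456, adjusted 0.0274). Adjusted p-values without this tumor cover the 6 genes and not the choice of the tumor left out. Esco2 had r = 0.75 (exact permutation p = 0.0444, adjusted 0.133), while Esco1 turned to -0.39 and Rec8, Smc1b and Stag3 were at -0.22, -0.60 and -0.56. The 2 tumors with Mki67 farthest from its median were Smc3/Bcl6 tumors 2 and 4. Without both, r over 7 tumors was 0.79 for Cdca5 (exact permutation p = 0.0254, adjusted 0.152), 0.69 for Esco2 and 0.42 for Esco1. Within the 6 Smc3/Bcl6 tumors r was -0.18 for Cdca5, 0.48 for Esco2 and 0.60 for Esco1, and 3 Bcl6 tumors are too few for a value. With tumor 2 and the 2 farthest of the other 8 left out, r over 6 tumors was 0.68 for Cdca5 (exact permutation p = 0.139), so the strength of the relation also rests on Bcl6 tumor 1 and Smc3/Bcl6 tumor 4, at its upper and lower ends.

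Measured against the mean log2 CPM of 16 mitosis genes in place of Mki67, Cdca5 and Esco2 were the 2 highest of the 6 over all 9 tumors. Cdca5 had r = 0.87 (exact permutation p = 0.00931, adjusted 0.0521) and Esco2 r = 0.83 (exact permutation p = 0.0174, adjusted 0.0521), both just short of an adjusted p of 0.05. Without Smc3/Bcl6 tumor 2 they had 0.98 (exact permutation p = 0.000273, adjusted 0.00164) and 0.90 (exact permutation p = 0.00727, adjusted 0.0218). Against the 16 S-phase genes, Cdca5 had r = 0.85 (exact permutation p = 0.0048, adjusted 0.0288) and Esco2 r = 0.71 (exact permutation p = 0.0289, adjusted 0.0866) over 9 tumors. Without tumor 2, Esco2 had 0.90 (exact permutation p = 0.00543, adjusted 0.0326) and Cdca5 0.81 (exact permutation p = 0.0277, adjusted 0.0831). Esco1, by contrast, had r = -0.34 with the mitosis genes and -0.54 with the S-phase genes over 9 tumors, although it had r = 0.64 with Mki67.

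Per length, Cdca5 kept close to Mki67 outside Smc3/Bcl6 tumor 2: its RPKM was between 74.0% and 124% of that of Mki67 in 8 tumors and 1219.7% in tumor 2. The RPKM of Esco2 was between 10.52% and 28.2% of that of Mki67 in these 8 tumors and 58.0% in tumor 2. Rec8 and Stag3 varied more, from 1.22% to 33.0% and from 0.173% to 7.15% of the RPKM of Mki67 over all 9 tumors. Tumor 2 is also the tumor with low counts on long genes, and after correction of log2 CPM for length r of Cdca5 with Mki67 over all 9 tumors was 0.52 (exact permutation p = 0.150, adjusted 0.303).

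The genes most like each of the 6 were sought as the 5 with the highest Pearson r of log2 CPM over the 9 tumors, among 9219 genes with a mean log2 CPM above 3 (9218 where the gene itself is one of them). For Cdca5 these were Metap2 (0.99), Nudt5, Nup37, Pa2g4 and Prdx3, and without Smc3/Bcl6 tumor 2 Banf1, Metap2, Nit2, Cdca2 and Coq7. For Esco2 they were Nup107 (0.97), Ddias, Psmd1, Neil3 and Bora, and without tumor 2 Nup107 (0.99), Prim1, Slc30a6, Rpf2 and Ccna2. Nup107 thus led in both sets of tumors. Esco1 was closest to Smc5, Kmt2e, Pcm1, Ep400 and Rad50, whose r without tumor 2 fell to between 0.87 and 0.93, and none of these was among its 5 closest genes in the 8 tumors.

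The low counts of the meiotic genes set the precision of their likeness. Rec8 was closest to Ccnj (0.93), followed by 2310057M21Rik, Nipsnap2, Rnf215 and Zfand1. Without Smc3/Bcl6 tumor 2 its closest genes were Atp6v0a1 (0.97), D430042O09Rik, Srcap, Ccnj (0.94) and Zfp148, so Ccnj alone was in both sets. Smc1b was closest to Idh1 (0.95), Tmem268, Slc2a3, Fgr and Ralgds, and in the 8 tumors to Hcar2 (0.97), Tax1bp1, Idh1, Jaml and Gm2a. Stag3 was closest to Anxa1 (0.90), followed by Mmp9, known from neutrophils, Apobec1 and Vps37c. In the 8 tumors it was closest to Zfp407 (0.94, against 0.46 over 9 tumors), followed by Aldh4a1, Fem1c and Anxa1. These r are the highest of the 9219 over 9 tumors that share depth, cell makeup and the length effect of tumor 2, and are given as a description.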

How the data were processed

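RNA-seq counts of 3 Bcl6 and 6 Smc3/Bcl6 lymphomas were analyzed. The authors made TruSeq libraries, aligned reads with STAR to mm10 and Gencode transcripts in the nf-core pipeline, quantified genes with featureCounts and deposited the raw counts. The submitters' processing notes name R 4.0.2 and DESeq2 1.28.1. The table held 0 columns without a sample. Gene symbols, positions and union exon lengths were those of GENCODE M21 (GRCm38), which held 97.9% of the identifiers. Other genes kept the symbol of the count file. Some symbols given here differ from that file, which has, for example, Gbas for Nipsnap2 and Amica1 for Jaml. Strand is not given for the counting. No other gene shared exon bases with the 6 genes.

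The 6 genes, the gene and marker lists and the tests were chosen with earlier results of these data known. Counts were normalized by TMM and compared with edgeR 4.0.16 in R 4.3.3 (its low-count filter with genotype as the group, its quasi-likelihood test and Benjamini-Hochberg adjustment over every gene tested), without covariates, with the thresholds of the study. The contrast is a description for the 6 genes. Log2 CPM used a prior count of 2. Correlations were tested by exact permutation over all pairings, computed with NumPy 2.4.6 and with ranks from SciPy 1.17.1. With the replicate block, signs were changed within the pairs instead. Named genes are the 6, their mitotic counterparts, list genes past the thresholds, the lowest and the highest of each list, and the 5 genes most like each, of which 1 is not reported here. The fit was tested on simulated data. Totals of 10156728 to 17774577 counts left Smc1b and Stag3 at 4 counts in some tumors.

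Alternatives were DESeq2 1.42.0, limma 3.58.1 with sample quality weights, further normalizations, filters and thresholds, the tissue label or Mki67 as a covariate, each tumor left out, and tumors 1 to 3 of both genotypes with a replicate block. The pairing comes from the labels' numbers. Deviations from the genotype mean correlated between same-numbered tumors at 0.47, 0.13 and 0.18. Tumors with different numbers were not compared in this way, so these values cannot show that the numbers pair tumors. A length offset (lowess span 0.3), alone and with the block, the 6 paired tumors without the pairing term, length-corrected log2 CPM, and proliferation relations without Smc3/Bcl6 tumor 2 by rank, by gene-list means or with 2 further tumors left out were added after the data were seen.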

Additional observations from a re-analysis of the deposited data

Results flagged for a closer look

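For the 6 genes, Mki67, Smc3 and the 4 ratios to a counterpart, 12 measures in all, it was asked whether the highest or lowest of the 6 Smc3/Bcl6 tumors lay far from the others on the log2 scale, by the gap to the nearest tumor as a share of the range (Dixon's 95% critical value), which chance gives in about 1 of 20 measures, or 0.6 of 12. This held for 3. The measures are not independent, since the 4 ratios reuse genes already counted, so no excess over chance is read from this. Stag3 was highest in Smc3/Bcl6 tumor 4 (0.690), where it had 3.46 CPM. Esco1 was lowest in Smc3/Bcl6 tumor 2 (0.765), at 26.4 CPM, and Smc3 was lowest in the same tumor (0.847), at 27.9 CPM. After correction of log2 CPM for exon length, that tumor was still the lowest for both genes (Esco1 5.06 against 6.50 to 7.10 in the other 8, Smc3 5.23 against 6.41 to 6.84). Esco2, a longer gene (6648 exonic bases), had 20.5 CPM there, within the range of the other Smc3/Bcl6 tumors. After the length correction its log2 CPM of 4.94 was above those tumors (3.66 to 4.49).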

How the results depend on the processing

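Over all genes, 180 were higher and 122 lower in Smc3/Bcl6 tumors, and 4 genes of the cohesion, meiosis and cell cycle lists passed (Timeless, Bub1, Cenpe and Tpx2). DESeq2 gave 342 higher. Limma with quality weights gave 642 higher, 1002 lower and 9 list genes, and no low-count filter gave 576, 812 and 10. The replicate block gave 45 higher and 254 lower, and with a length offset 71, 258 and 1 list gene. The 6 paired tumors without the pairing term gave 0 list genes. The tissue label as a covariate gave 192 lower and 1 list gene, and an unadjusted p below 0.05 gave 46, 31 and 1. With each tumor left out, the ranges were 84 to 339 higher, 61 to 321 lower and 0 to 14 list genes (14 without Smc3/Bcl6 tumor 2), and 0 genes at an adjusted p below 0.05. The cause of these shifts was not tested.

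With each tumor left out, log2 fold changes ranged from 1.45 to 2.06 for Rec8, -0.36 to 0.70 for Smc1b, -0.32 to 1.65 for Stag3 (7 fits), -0.33 to 0.00 for Esco1, -1.25 to -0.42 for Esco2 and -0.48 to 0.30 for Cdca5. Esco2 was at -0.45 with the replicate block and a length offset and at -0.63 by limma with quality weights. The block changed the calls of Rec8, Esco2 and Mki67 and the gene counts given here. Mki67 passed as lower with the block (-1.03, SE 0.50) and with the block and a length offset (-0.68, SE 0.32).

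For the relation to Mki67, the ranges with each tumor left out were -0.46 to 0.082 for Rec8, -0.60 to 0.049 for Smc1b, -0.56 to 0.15 for Stag3, -0.39 to 0.90 for Esco1, 0.50 to 0.75 for Esco2 and -0.57 to 0.93 for Cdca5. The Cdca5 relation was negative with all tumors and positive by rank (0.33), with the mitosis (0.87) and S-phase means (0.85), without the 2 farthest tumors (0.79) and after length correction (0.52). Without Smc3/Bcl6 tumor 2 these were 0.98 (mitosis), 0.81 (S-phase), 0.90 (rank) and 0.68 (with 2 more tumors left out). Esco1 changed sign with the mitosis (-0.34, and -0.31 without tumor 2) and S-phase means (-0.54 and -0.27) and by rank without tumor 2 (-0.048). Esco2 passed with both means without tumor 2 (0.90 each). Rec8 changed sign by rank (0.067, and 0.19 without tumor 2), within Smc3/Bcl6 tumors (0.16), without the 2 farthest (0.42), and without tumor 2 and the 2 farthest of the other 8, Bcl6 tumor 1 and Smc3/Bcl6 tumor 4 (0.55). Stag3 changed sign in the last 2 settings (0.075 and 0.28), and Smc1b with the replicate block (0.85). With this block the others were -0.94 for Rec8, -0.01 for Stag3, 0.96 for Esco1, 0.43 for Esco2 and -0.83 for Cdca5. The smallest p that sign changes within the pairs allow is 0.25. At 4 to 52 counts per tumor, Smc1b and Stag3 allow no firm fold change.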
